A study of Oryza sativa Japonica Group with 28 samples.

Results

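Starch synthases add glucose from ADP-glucose to growing glucan chains, and rice carries a small family of them. The 10 isoforms of that family in the table of read signal (10 of 45990 genes) were described here by their identifiers, as GBSSI (Os06g0133000), GBSSII (Os07g0412100), SSI (Os06g0160700), SSIIa (Os06g0229800), SSIIb (Os02g0744700), SSIIc (Os10g0437600), SSIIIa (Os08g0191433), SSIIIb (Os04g0624600), SSIVa (Os01g0720600) and SSIVb (Os05g0533600). All 9 genes that the table annotates with starch synthase activity are in this family, and SSIIIa, the other member, carries only a general biosynthesis term there. All 10 passed the filter on low values, although SSIIb had 10 or more reads in only 5 of 28 libraries.

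In cereal grains the granule-bound enzymes make the long, nearly unbranched chains of amylose, whereas the soluble enzymes of the SSI, SSII, SSIII and SSIV classes build amylopectin together with branching and debranching enzymes. In rice, GBSSI, SSI, SSIIa and SSIIIa are known as the isoforms of the starchy endosperm, and GBSSII, SSIIb and SSIIIb as those of leaves and of the pericarp, where starch is stored for a short time and then used. The remaining isoforms, SSIIc, SSIVa and SSIVb, are not assigned to either side here.

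The tissues were laser-captured from grains of the japonica cultivar Nipponbare, grown hydroponically without further treatment. Cross cells (CC, the chlorophyll-bearing inner layer of the pericarp), nucellar epidermis (NE), ovular vascular trace (OVT, the strand that delivers nutrients from the mother plant) and endosperm (EN) were sampled on days 4, 8 and 16 from flowering (DAF, days after flowering), and the aleurone layer (AL) on day 16 only. The 28 libraries form 13 groups of 1 to 3 libraries, and each preparation pooled tissue of 3 grains. Libraries are named by the MM number of their label, and the methods call those of 1 tissue biological replicates without naming the plants, so p-values measure the spread between libraries only. The authors left out replicates that correlated poorly, so this spread is that of libraries kept after such a choice.

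Signal is the number of reads of a gene multiplied by 1 factor per library, so levels of different genes are compared only per 1000 bases of gene length. The libraries held an estimated 815309 to 97250993 reads (median 6868533), and the signal that 3 reads would give is taken as the limit for a value of 0, which covers counting error only. EN of 4 DAF, like CC of 8 DAF and OVT of 16 DAF, had 1 library, and its tests assume that this library varies as the other groups do. The library labelled OVT at 16 DAF went against its label, since 2 of 3 OVT marker genes were at 0 in it (summed signal 22.2, against 7730 to 31510 in the other OVT libraries), and each test of 16 DAF that uses it is given with and without it, while ranges over CC, NE and OVT include it. Storage protein genes that mark EN (5 genes) made up 12.8 to 15.7% of the signal in EN at 8 and 16 DAF and 0.550% at 4 DAF, but they also reached 9.37% in CC MM17 and 6.97% in NE MM17 of 16 DAF, 6.53% in the library labelled OVT at 16 DAF, and 0.537 to 7.01% in AL. Genes that mark CC (5 genes) made up 0.0933 to 1.02% of the signal in CC and at most 0.140% elsewhere, whereas genes that mark AL (4 genes) reached 0.234 to 0.291% in AL and up to 0.341% in NE, and the single NE gene overlapped between NE and CC. In these captured tissues, fewer cells of a type and less RNA per cell cannot be told apart.

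**Figure D1:**
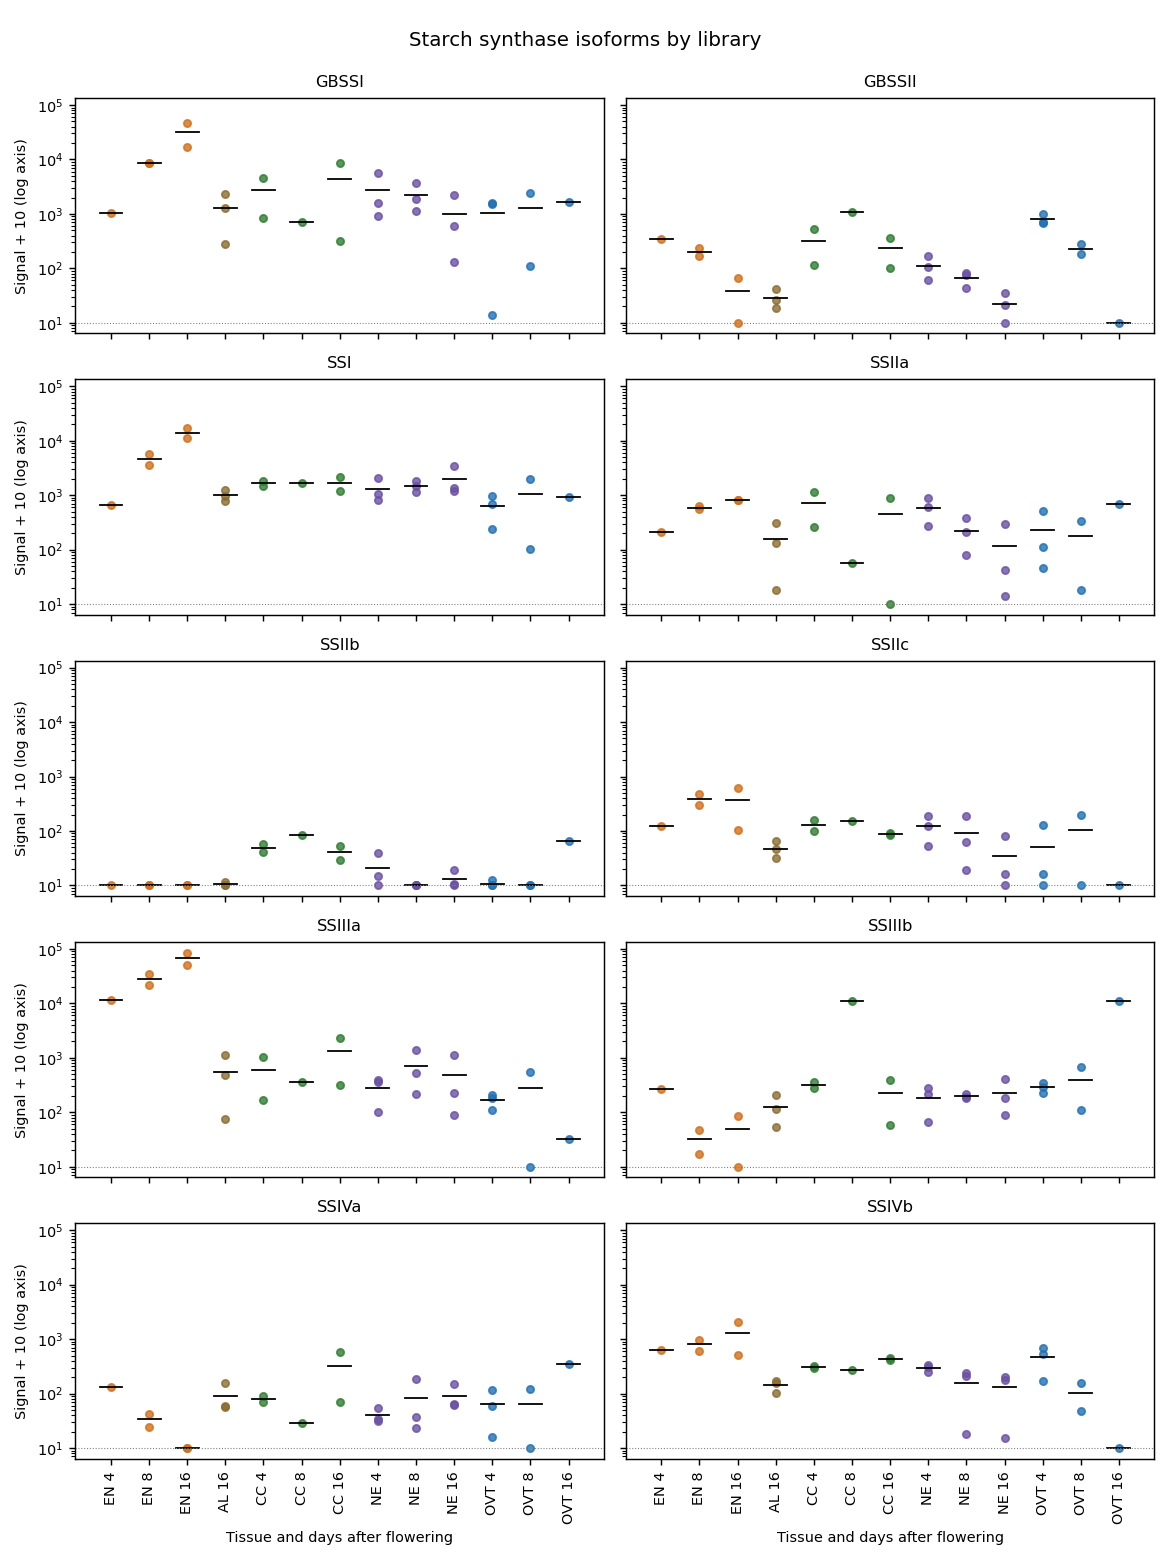
Signal plus 10 (log axis) of each isoform in 28 libraries, by tissue and DAF; points are libraries, black bars are group means and the dotted line is a signal of 0. SSIIIa lies between 11390 and 85780 in EN and at or below 2341 in CC, NE and OVT, while SSIIb is at 0 in all 5 EN libraries.

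SSIIIa showed the widest gap between EN and the other tissues. This enzyme makes long chains of amylopectin in the rice endosperm. Its signal was 11390 in the EN library of 4 DAF, 34190 (MM20) and 21740 (MM22) for the libraries of 8 DAF, and 85780 (MM17) and 50230 (MM18) for those of 16 DAF. In the 20 libraries of CC, NE and OVT it ran from 0 to 2341 with a median of 262.4. No library of another tissue reached the lowest EN library at any stage.

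The signal of SSIIIa in EN was compared with the mean of CC, NE and OVT of the same stage on log2(signal + 10), in limma with 1 mean per group, and "higher" or "lower" below means an adjusted p under 0.05 over 27529 genes. SSIIIa was higher in EN at 8 DAF by 6.80 ± 1.23 (log2 fold change ± SE, adjusted p = 0.000922). It was higher at 16 DAF by 8.36 ± 1.23 (adjusted p = 4.6e-05), and by 7.05 ± 1.23 (adjusted p = 0.000454) without the library labelled OVT. At 4 DAF, with 1 EN library, the difference was 5.49 ± 1.56 (adjusted p = 0.0625). It missed the threshold there, whereas it passed with upper-quartile factors (adjusted p = 0.0486), TMM factors (0.0278), a pseudocount of 30 (0.0363), voom (0.000859) and the MM number as a block (0.0222).

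SSIIIb, the isoform of leaf and pericarp in the same class, went the other way. Its signal in EN was 261 at 4 DAF, 38.2 and 7.22 for the libraries of 8 DAF, and 0 and 76.7 for those of 16 DAF. It ran from 48.0 to 10960 in CC, NE and OVT, with a median of 241.8. The EN library of 4 DAF therefore lay inside the range of the other tissues, and the later ones lay at or near its lower end. At 8 DAF both EN libraries lay below all 6 others. SSIIIb was lower in EN there by -4.86 ± 0.92 (log2, adjusted p = 0.0014), and by -3.01 without CC MM21, the only CC library of that stage. That call was lost without EN MM22, in which the value rests on 1 read (adjusted p = 0.0767), with voom (0.12) and with the MM number as a block (0.06).

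At 16 DAF SSIIIb was lower in EN by -4.53 ± 0.92 (adjusted p = 0.0013), with overlapping libraries, since CC MM17 had 48.0. This call rested on 2 libraries. It was lost without the library labelled OVT (-2.52 ± 0.94, adjusted p = 0.0762) and without EN MM17 (-2.97, adjusted p = 0.092).

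A pair of libraries stood far above all others in SSIIIb. CC MM21, the only CC library of 8 DAF, had 10920, and the library labelled OVT at 16 DAF had 10960. They rest on 1149 and 986 estimated reads of SSIIIb, whereas the next highest library, OVT MM21 of 8 DAF, had a signal of 661. Both are the sole library of their group, so the level has no replicate. In CC at 8 DAF SSIIIb was higher than in NE, OVT and EN by 6.56 ± 1.18 (log2, adjusted p = 0.000528). The other CC libraries had 343.3 and 263.7 (4 DAF) or 388.4 and 48.0 (16 DAF), of which the last was the lowest value outside EN and AL. CC MM21 had the fewest reads of all libraries.

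The log2 ratio of SSIIIa to SSIIIb within a library separated EN from the other tissues with no overlap. It was 5.39 in the EN library of 4 DAF, 9.47 and 10.30 in those of 8 DAF, and 13.07 and 9.18 in those of 16 DAF. It ran from -8.41 to 5.34 with a median of -0.05 in the 20 other libraries, and the highest of them was CC MM17 of 16 DAF. SSIIIb was at 0 in EN MM17 of 16 DAF, so the value of 13.07 there depends on the pseudocount of 10. Averaged over stages, EN exceeded CC, NE and OVT by 9.12 (p = 0.000142, adjusted p = 0.000709 over 5 ratios, two-sided exact permutation of the EN name within stages), which is the smallest p that the 7056 arrangements allow. Without the library labelled OVT the difference was 8.57 (exact permutation p = 0.000189).

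**Figure D2:**
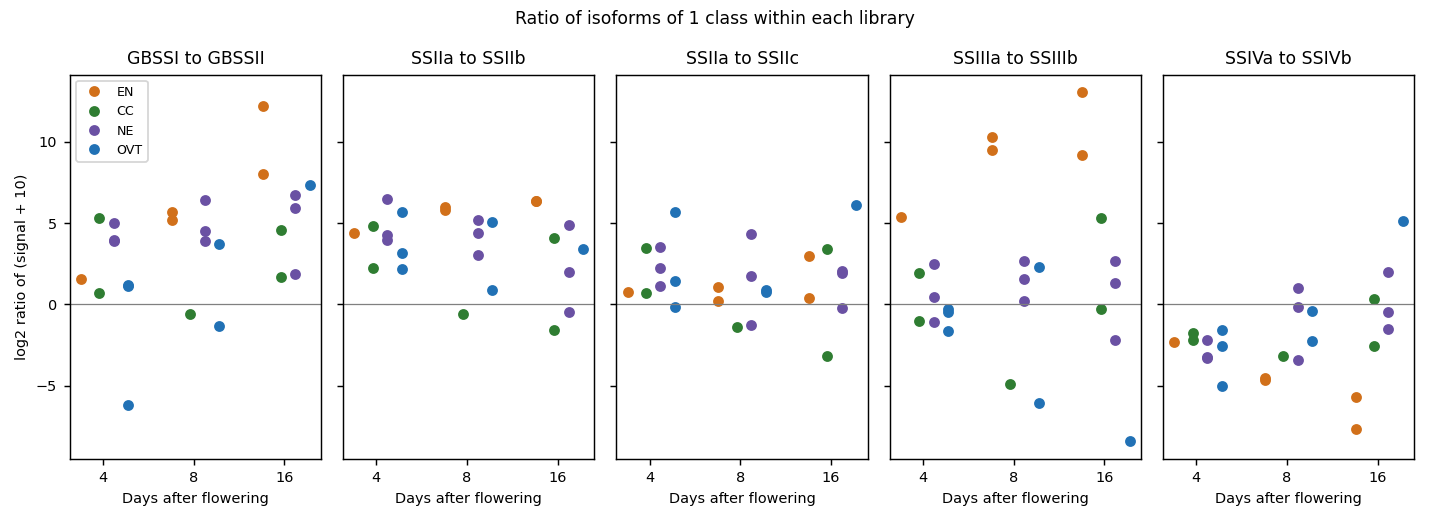
Log2 ratio of (signal + 10) for 5 pairs of isoforms, by DAF; each point is 1 library, coloured by tissue. All 5 EN libraries lie above the 20 others for SSIIIa to SSIIIb, while the EN libraries of 8 and 16 DAF are low for SSIVa to SSIVb.

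GBSSI, which makes amylose in the endosperm, reached high signal in EN but was detected in every library. It was 1017 in the EN library of 4 DAF, 8584 and 8450 in those of 8 DAF, and 16760 and 47350 in those of 16 DAF. In CC, NE and OVT it ran from 4.11 (OVT MM05 of 4 DAF) to 8570 (CC MM17 of 16 DAF), with a median of 1564. EN at 4 DAF thus lay below the median of the other tissues, and both later EN groups lay above every library of CC, NE and OVT of the same stage.

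The difference of GBSSI between EN and the other tissues did not pass the threshold at any stage. It was -0.09 ± 2.19 at 4 DAF, 3.24 ± 1.73 at 8 DAF (adjusted p = 0.255) and 4.62 ± 1.73 at 16 DAF (log2, adjusted p = 0.0807, 95% interval 0.99 to 8.24). The last of these was 4.86 ± 1.74 (adjusted p = 0.0734) without the library labelled OVT. The standard error of GBSSI was the largest of the family. CC MM17 (8570) and NE MM17 (2213) of 16 DAF, which have the highest shares of storage protein signal among the CC and NE libraries, also had the highest GBSSI of their groups, while CC MM18 had 314.5 and NE MM18 121.6. Without both MM17 libraries, an alternative chosen after seeing the data, the difference was 5.73 ± 1.54. Leaving out CC MM17, NE MM17 or both can only raise the difference, since they had the highest GBSSI of their groups. With all libraries it passed with a pseudocount of 30 (adjusted p = 0.0326) and with the MM number as a block (0.0248). Without NE MM17 alone it passed narrowly (0.0494). The part of storage tissue in these libraries was not tested.

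**Figure D3:**
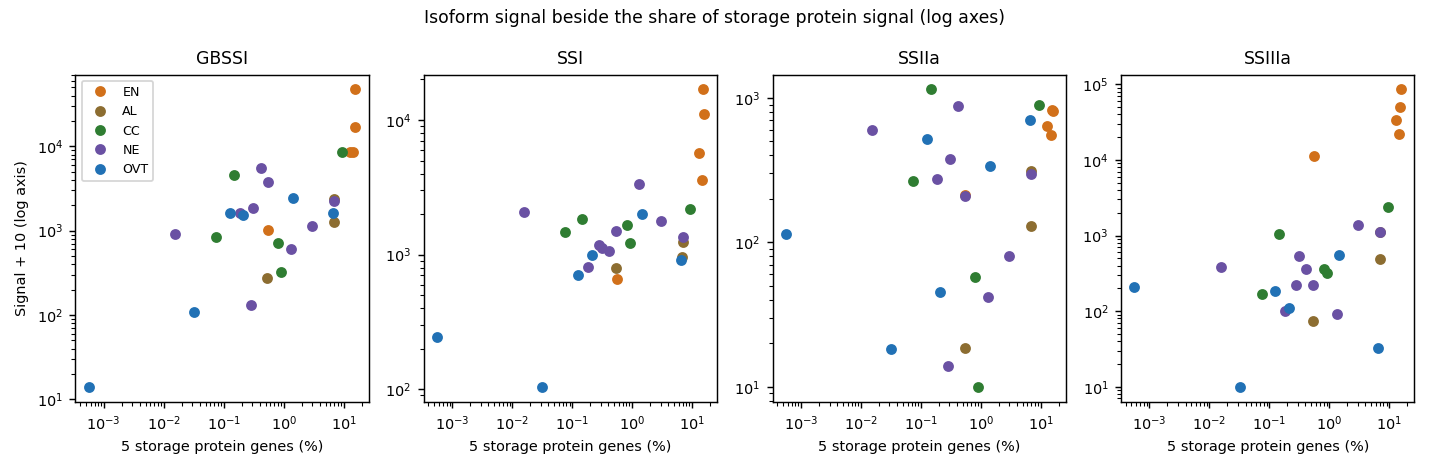
Signal plus 10 of GBSSI, SSI, SSIIa and SSIIIa against the percentage of library signal from 5 storage protein genes, on log axes; each point is 1 of 28 libraries, coloured by tissue. CC MM17 of 16 DAF, at 9.37%, has the highest GBSSI (8570) and SSIIIa (2341) outside EN, and its SSIIIa lies below every EN library.

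The other granule-bound isoform, GBSSII, was highest in CC and OVT. It was 1065 in CC MM21 of 8 DAF. OVT at 4 DAF had 694, 1007 and 679.1, and CC had 509.5 and 104.6 at 4 DAF and 350.2 and 93.1 at 16 DAF. In NE no library exceeded 160.3, and OVT at 4 DAF lay above all libraries of the other tissues of that stage.

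GBSSII was higher in CC than in NE, OVT and EN at 16 DAF by 3.49 ± 0.82 (log2, adjusted p = 0.0103), with both CC libraries above the others, and by 3.11 ± 0.82 (adjusted p = 0.0285) without the library labelled OVT. The call was lost without CC MM17 (2.59, adjusted p = 0.145). In OVT at 4 DAF the difference was 1.95 ± 0.72 (adjusted p = 0.0808) and in CC at 8 DAF 2.92 ± 1.05 (adjusted p = 0.0866), which did not pass.

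In EN itself GBSSII was 334.3 at 4 DAF, 156.4 and 223.7 for the libraries of 8 DAF, and 55.4 and 0 for those of 16 DAF. In NE it ran from 49.96 to 160.3 in the 4 DAF libraries, from 33.8 to 71.8 in those of 8 DAF and from 0 to 25.6 in those of 16 DAF. The libraries of successive stages did not overlap in EN, and in NE 8 and 16 DAF did not, but no change between stages passed (EN 16 DAF against 8 DAF -2.95 ± 0.98, adjusted p = 0.172; NE 16 DAF against 8 DAF -1.72 ± 0.80, adjusted p = 0.454).

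For the ratio of GBSSI to GBSSII the log2 difference between EN and the other tissues was 2.59 over stages and missed the threshold (exact permutation p = 0.13, adjusted p = 0.163). By stage the difference was -0.31, 2.67 and 5.42 at 4, 8 and 16 DAF. It was 2.77 over stages (exact permutation p = 0.121) and 5.96 at 16 DAF without the library labelled OVT. Without the single EN library of 4 DAF it was 4.05 (exact permutation p = 0.0217).

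SSI, which elongates the shortest chains of amylopectin, had 10 or more reads in all 28 libraries. Its signal was 94.4 to 3363 in the 20 libraries of CC, NE and OVT, with a median of 1275. In EN it was 648.3 at 4 DAF, 5668 and 3579 for the libraries of 8 DAF, and 11060 and 16870 for those of 16 DAF. EN at 4 DAF was among the lowest groups, and EN at 8 and 16 DAF lay above every library of the other tissues.

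SSI was higher in EN at 16 DAF by 3.31 ± 0.75 (log2, adjusted p = 0.00315), and by 3.02 ± 0.75 (adjusted p = 0.00901) without the library labelled OVT. Scaled to equal summed signal, which lowers the EN values of 16 DAF most because these 2 libraries have the largest totals, it was 1.23 (adjusted p = 0.44). It also missed the threshold without EN MM18 (3.01, adjusted p = 0.0508). At 8 DAF the difference was 2.13 ± 0.75 (adjusted p = 0.0626), and it passed with upper-quartile factors (0.0136), TMM factors (0.0291), without CC MM21 (0.0394) and without OVT MM22 (0.00142).

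The 3 isoforms of the SSII class, which extend short chains to intermediate length, differed in where they were found. SSIIa, the endosperm isoform, was 201.8 in the EN library of 4 DAF, 627.5 and 541.2 in those of 8 DAF, and 800.2 and 820.6 in those of 16 DAF. It ran from 0 (CC MM18 of 16 DAF) to 1135 (CC MM13 of 4 DAF) elsewhere, with a median of 260.8. The range outside EN over all stages thus included every EN library, and no comparison of SSIIa passed in the main fit. Within 8 DAF both EN libraries lay above the 6 libraries of CC, NE and OVT, which ran from 8.21 to 368.3. In EN at 16 DAF the difference was 2.40 ± 1.44 (log2, adjusted p = 0.315), and 3.49 ± 1.44 (adjusted p = 0.114) without the library labelled OVT. It was 3.89 ± 1.21 without CC MM17 and NE MM17 of 16 DAF, an alternative chosen after seeing the data. These libraries had the highest SSIIa of their groups (889.5 and 289.5), so leaving them out can only raise the difference. The difference in EN at 8 DAF was 2.65 ± 1.44 (adjusted p = 0.255, 95% interval -0.31 to 5.62).

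SSIIb, one of the leaf and pericarp isoforms, was at 0 in all 5 EN libraries. A count of 3 reads would have given 1.57 in the EN library of 4 DAF, 2.61 and 21.6 in those of 8 DAF, and 4.89 and 11.5 in those of 16 DAF. In CC it was 46.7 and 30.6 at 4 DAF, 76.1 at 8 DAF and 43.0 and 19.3 at 16 DAF, so that CC was the only tissue with signal in every library. The other libraries had 0 to 28.6, except for 55.6 in the library labelled OVT at 16 DAF.

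SSIIb was higher in CC at 4 DAF by 1.95 ± 0.47 (log2, adjusted p = 0.0237) and at 8 DAF by 3.10 ± 0.61 (adjusted p = 0.00142). The value of 8 DAF rests on 8 reads, and both calls were lost with voom (adjusted p = 0.18 and 0.133). The call of 4 DAF was also lost with a pseudocount of 1 (0.0872), the MM number as a block (0.0585), the title prefix as a covariate (0.22), and without CC MM05 (0.287) or CC MM13 (0.0627). At 16 DAF the difference in CC was 0.96 ± 0.48 (adjusted p = 0.231), but 1.81 ± 0.46 (adjusted p = 0.0226) without the library labelled OVT.

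SSIIb was lower in EN at 16 DAF (adjusted p = 0.0172), but the libraries overlapped at 0 and the call was lost without the library labelled OVT (adjusted p = 0.0998), scaled to equal summed signal (0.141), with voom (0.188), and without EN MM17 (0.107) or EN MM18 (0.0984). Set against CC alone, and taking 3 reads in a library as the limit for EN, SSIIb was at least 24.6-fold lower in EN at 4 DAF, 3.51-fold at 8 DAF and 2.71-fold at 16 DAF. Since SSIIb was at 0 in every EN library, the ratio of SSIIa to SSIIb there is SSIIa over the pseudocount alone. Its log2 difference of 2.50 between EN and the other tissues (exact permutation p = 0.0257, adjusted p = 0.0428; 2.59 and exact permutation p = 0.0293 without the library labelled OVT) became 4.24 with a pseudocount of 1 and 1.77 with one of 30, and it is not read as a difference in the ratio. All EN libraries lay within the range of the others, and the threshold was missed without EN MM18 of 16 DAF (exact permutation p = 0.0522).

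SSIIc was 112.7 in the EN library of 4 DAF, 295.5 and 469.1 in those of 8 DAF, and 94.5 and 617.4 in those of 16 DAF. It was 0 to 188 in CC, NE and OVT, with a median of 72.2. Both EN groups of 8 and 16 DAF lay above the libraries of the other tissues of their stage, by 2.36 ± 1.15 (adjusted p = 0.195) and 3.23 ± 1.15 (adjusted p = 0.0576) on the log2 scale, and neither passed. The difference at 16 DAF was 2.50 ± 1.15 (adjusted p = 0.161) without the library labelled OVT. With that library it passed at 16 DAF with upper-quartile factors (adjusted p = 0.0205) and without NE MM17 (0.0336), which had the highest SSIIc of its group. Upper-quartile factors multiply that library by 9.94. Without CC MM17 and NE MM17 together, an alternative chosen after seeing the data, the difference was 3.51 ± 1.19. For the ratio of SSIIa to SSIIc the difference between EN and the other tissues was -0.56 and missed the threshold (exact permutation p = 0.62, adjusted p = 0.62), and it was -0.27 (exact permutation p = 0.797) without the library labelled OVT.

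The SSIV class takes part in the initiation of starch granules, as known from Arabidopsis. SSIVa fell short of detection in late endosperm. Its signal in EN was 119.5 at 4 DAF, 33.0 and 14.4 at 8 DAF and 0 in both libraries of 16 DAF. In the other tissues at 16 DAF it was 61.2 and 568.1 in CC, 53.4, 137 and 51.1 in NE and 333.6 in the library labelled OVT. At 4 DAF, by contrast, the EN library was above all 8 others.

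SSIVa was lower in EN at 16 DAF by -4.17 ± 1.01 (log2, adjusted p = 0.00564), and by -3.70 ± 1.02 (adjusted p = 0.0172) without the library labelled OVT. Against the signal of 3 reads in a library it was at least 21.1-fold lower than the mean of the other tissues, or at least 17.2-fold lower without that library. CC MM18 (568.1) and the library labelled OVT (333.6) raised that mean. Against CC MM17 (61.2) or the NE libraries (51.1 to 137) the bound is smaller. The call was lost without EN MM17 (adjusted p = 0.0509). The difference between the EN effects at 16 and 4 DAF was -5.46 ± 1.64 (adjusted p = 0.063), and -4.99 ± 1.64 (adjusted p = 0.113) without the library labelled OVT.

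SSIVb took a larger mean share of the signal per length than SSIVa in each EN group, and in every other group except CC and OVT at 16 DAF. Its signal was 622.1 at 4 DAF, 969.9 and 606.2 for the libraries of 8 DAF, and 2037 and 502.3 for those of 16 DAF in EN. In CC, NE and OVT it was 0 to 684.7, with a median of 238. At 8 and 16 DAF each EN library was above all libraries of the other tissues of its stage.

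SSIVb was higher in EN at 16 DAF by 3.84 ± 0.98 (log2, adjusted p = 0.00762). Without the library labelled OVT, in which SSIVb was at 0, it was 2.43 ± 0.97 (adjusted p = 0.103), scaled to equal summed signal 1.22 (0.581), and without EN MM17 2.84 (0.173), so the call rested on these choices. At 8 DAF the difference was 2.56 ± 0.98 (adjusted p = 0.0859), and it passed with upper-quartile (0.0305) and TMM factors (0.0461).

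The log2 ratio of SSIVa to SSIVb was -2.29 in EN at 4 DAF, -4.51 and -4.66 for the libraries of 8 DAF, and -7.68 and -5.68 for those of 16 DAF. In the other 20 libraries it ran from -5.04 to 5.10, with a median of -1.97. The ratio was lower in EN by -3.30 over stages (exact permutation p = 0.00694, adjusted p = 0.0174), and by -2.99 (exact permutation p = 0.00661) without the library labelled OVT. By stage the difference was 0.45 at 4 DAF, -3.19 at 8 DAF and -7.16 at 16 DAF (-6.23 without that library). SSIVa was at 0 in both EN libraries of 16 DAF and rests on 2 reads in EN MM22 of 8 DAF. The values there, and with them the size of the difference over stages, therefore depend on the pseudocount. Without the single EN library of 4 DAF the difference was -5.17 (exact permutation p = 0.00128).

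**Figure D4:**
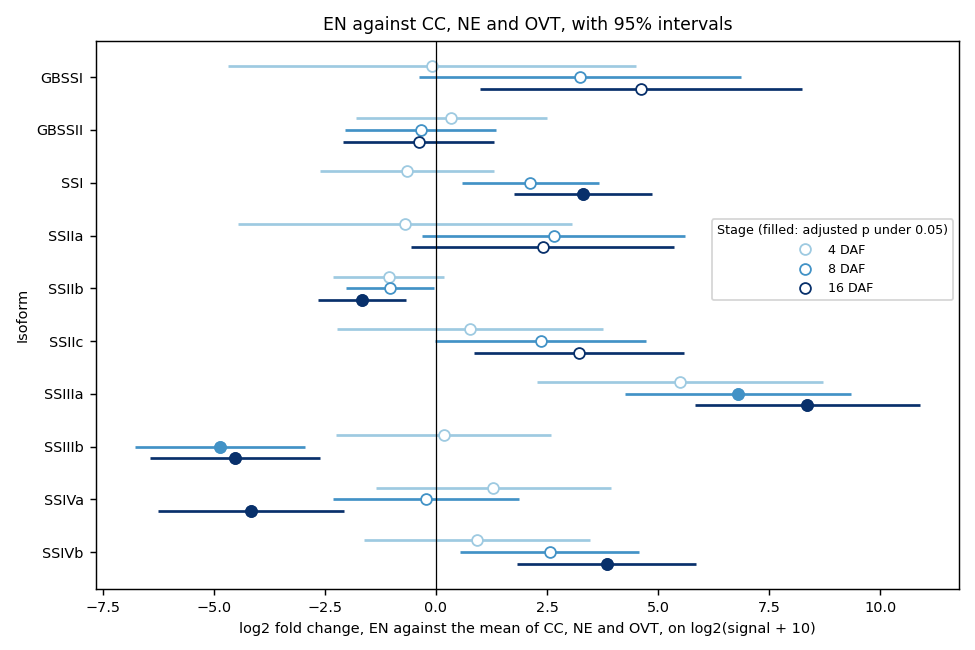
Log2 fold change of EN against the mean of CC, NE and OVT at 4, 8 and 16 DAF for each isoform, on log2(signal + 10) and with the library labelled OVT at 16 DAF included; lines are 95% intervals and filled points have an adjusted p under 0.05. SSIIIa is filled at 8 DAF (6.80) and 16 DAF (8.36), and SSIIIb (-4.86 at 8 DAF) lies on the opposite side.

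Counted over the family, no isoform was called in EN at 4 DAF, where 2.42% of all tested genes were called. SSIIIa alone had an unadjusted p under 0.05 in limma at that stage, against 3765 of 27529 genes. With other settings it was called there, as given above. At 8 DAF 1 isoform was higher (SSIIIa) and 1 lower (SSIIIb), against 5.42% of all genes higher and 7.44% lower. At 16 DAF 3 were higher (SSI, SSIIIa and SSIVb) and 3 lower (SSIIb, SSIIIb and SSIVa), against 7.65% higher and 8.43% lower. Without the library labelled OVT the 16 DAF calls were SSI and SSIIIa higher and SSIVa lower, against 5.14% of all genes higher and 8.31% lower.

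The median log2 fold change of the 10 isoforms in EN was 0.26, 2.24 and 2.82 at 4, 8 and 16 DAF, against -0.12, -0.08 and -0.20 over all tested genes. Among the 4 endosperm isoforms it was -0.37, 2.95 and 3.96, and all 4 were more than 2-fold higher at 8 and at 16 DAF, although at most 2 of them passed the test. Of all 27529 tested genes 5055 were more than 2-fold higher at 8 DAF and 4962 at 16 DAF. Among the 3 leaf and pericarp isoforms the median was 0.17, -1.04 and -1.67, and 1 and 2 of them passed as lower at 8 and 16 DAF. Without the library labelled OVT the median at 16 DAF was 2.46 over the 10 isoforms, 4.18 for the endosperm isoforms and -1.26 for the leaf and pericarp isoforms, of which none then passed, against -0.35 over all genes. None of the 30 differences in the EN effect between stages passed (lowest adjusted p 0.063), with 6 at an unadjusted p under 0.05 in limma. Of the 20 that involve 16 DAF none passed without the library labelled OVT (lowest adjusted p 0.113), with 3 at an unadjusted p under 0.05. In the fit with that library 216 of all tested genes passed for 8 against 4 DAF. For 16 against 8 DAF 648 passed, and for 16 against 4 DAF 1065. The share of all genes at an unadjusted p under 0.05 was not counted for these differences.

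In CC 1 isoform was higher at 4 DAF (SSIIb, against 1.78% of all genes), 2 were at 8 DAF (SSIIb and SSIIIb, 7.44%) and 1 was at 16 DAF (GBSSII, 6.24%). None was lower, against 0.338%, 1.93% and 2.27% of all genes at these stages. In the fit without the library labelled OVT 2 were higher in CC at 16 DAF (GBSSII and SSIIb), against 1103 of 27529 genes higher. In OVT none was called at 4 DAF, against 11.7% of genes. An unadjusted p under 0.05 in limma was found for 4 isoforms there, against 7143 of 27529 genes. At that stage 1 isoform passed with a pseudocount of 30 and 1 with the MM number as a block. At 8 DAF SSIIIa was lower in OVT by -4.56 ± 1.23 (adjusted p = 0.0195; 4.08% of genes lower), with values of 0 and 542.5. The call rested on OVT MM21, without which it was -1.66 (adjusted p = 0.656), and it was lost with no filter (0.0519) and with voom (0.459).

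In NE no isoform was called at 4, 8 or 16 DAF, where 0.835%, 3.06% and 8.15% of genes were, and 1, 2 and 2 isoforms had an unadjusted p under 0.05 in limma. Of all 27529 genes 2760, 4733 and 6236 had such a p at these stages. At 16 DAF upper-quartile factors gave 3 lower calls, voom 1, and the fit without the library labelled OVT 1, which was SSIIIa (-4.74 ± 1.12, adjusted p = 0.0211). Upper-quartile factors, which multiply the library labelled OVT by 9.94, called 3773 of all genes in NE at 16 DAF, against 2243 in the main fit. At 8 DAF a pseudocount of 30 gave 1 call. No change between stages within a tissue passed for any isoform in the main fit or with another scaling, pseudocount, filter or voom, and 0 to 2 isoforms a comparison had an unadjusted p under 0.05 in limma. Over all 27529 genes 2298 to 4513 a comparison had such a p. Of all genes 1.49% changed in EN from 4 to 8 DAF and 1.48% from 8 to 16 DAF, 0.505% and 0.2% in NE, 2.72% in CC from 4 to 16 DAF and 1.22% in OVT from 4 to 8 DAF. Leaving out EN MM17 or OVT MM22 leaves 1 library in its group. More genes were then called, in the family and over all genes, so those calls are not read as changes of the isoforms. SSI in EN, for example, was 2.78 ± 1.09 higher on the log2 scale at 8 DAF than at 4 DAF (adjusted p = 0.353), and SSIIIb -3.23 ± 1.35 (adjusted p = 0.421).

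The aleurone layer is formed from the outer endosperm, and it stores oil and protein rather than starch. SSIIIa was 64.5 (MM04), 1101 (MM17) and 479.7 (MM18) in AL at 16 DAF, and SSI was 787.8, 1228 and 953.1. GBSSI was 265.1, 2343 and 1267 in the same libraries. Each AL library lay below both EN libraries of 16 DAF in all 3 genes.

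SSIIIa was lower in AL than in EN by -7.58 ± 1.34 (log2, adjusted p = 0.000766) and SSI by -3.80 ± 0.81 (adjusted p = 0.004), so that 2 of 10 isoforms were lower and none higher, against 3.89% and 6.61% of all genes. Scaled to equal summed signal SSI was -1.21 (adjusted p = 0.426). GBSSI was -4.91 ± 1.88 (adjusted p = 0.107), and it passed with voom (0.00585). SSIVa was 149.6, 47.3 and 48.5 in AL and 0 in EN, a difference of 3.02 ± 1.10 (adjusted p = 0.0816), which passed with a pseudocount of 1 (0.0108), voom (0.008) and TMM factors (0.0466). SSIVb (-2.88 ± 1.06, adjusted p = 0.0841) passed with voom (0.0216), and SSIIIb (1.90 ± 1.00, adjusted p = 0.255) when scaled to equal summed signal (0.0302). AL MM17 and MM18, with 7.01% and 6.88% of signal from storage protein genes, had more GBSSI, SSIIa and SSIIIa than AL MM04, with 0.537%; the part of these transcripts in the AL values was not tested.

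Per 1000 bases of gene length, 2 isoforms made up most of the starch synthase signal in EN. SSIIIa took 62.6% in the EN library of 4 DAF, then 44.8% ± 5.36 in the 8 DAF libraries (SD, n = 2), and by 16 DAF 40.1% ± 21.9 (SD, n = 2). GBSSI took 13.7%, 34.4% ± 6.46 and 41.7% ± 21.4 of it in the same groups. The spread at 16 DAF is between MM17, with 55.6% SSIIIa and 26.6% GBSSI, and MM18, with 24.7% and 56.8%, so the order per length differed between these libraries. Without length correction SSIIIa took 43.1 to 73.6% and GBSSI 14.4 to 40.7% at 16 DAF, so SSIIIa then led in both libraries. SSI took 7.22%, 15.0% and 15.7%.

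Outside EN the composition was different and more variable. In the 20 libraries of CC, NE and OVT the 4 endosperm isoforms took 16.6 to 93.9% of the signal per length (mean 70.8%), against 85.5 to 99.0% in EN, and SSI and GBSSI were the main part of it. GBSSII took 27.5% ± 15.7 (SD, n = 3) in OVT at 4 DAF and a mean of at most 9.01% in the CC groups. SSIIIb took 68.2% in CC at 8 DAF and 71.4% in the library labelled OVT at 16 DAF, where it had the values given above. In OVT at 8 DAF it took 50.4% in MM21 and 1.43% in MM22, so no mean is given for that group. In NE at 16 DAF SSI took 55.0% ± 25.7 (SD, n = 3). In the AL libraries GBSSI took a mean of 41.7% and SSI 36.2%, with lowest values of 22.2% and 23.3%.

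**Figure D5:**
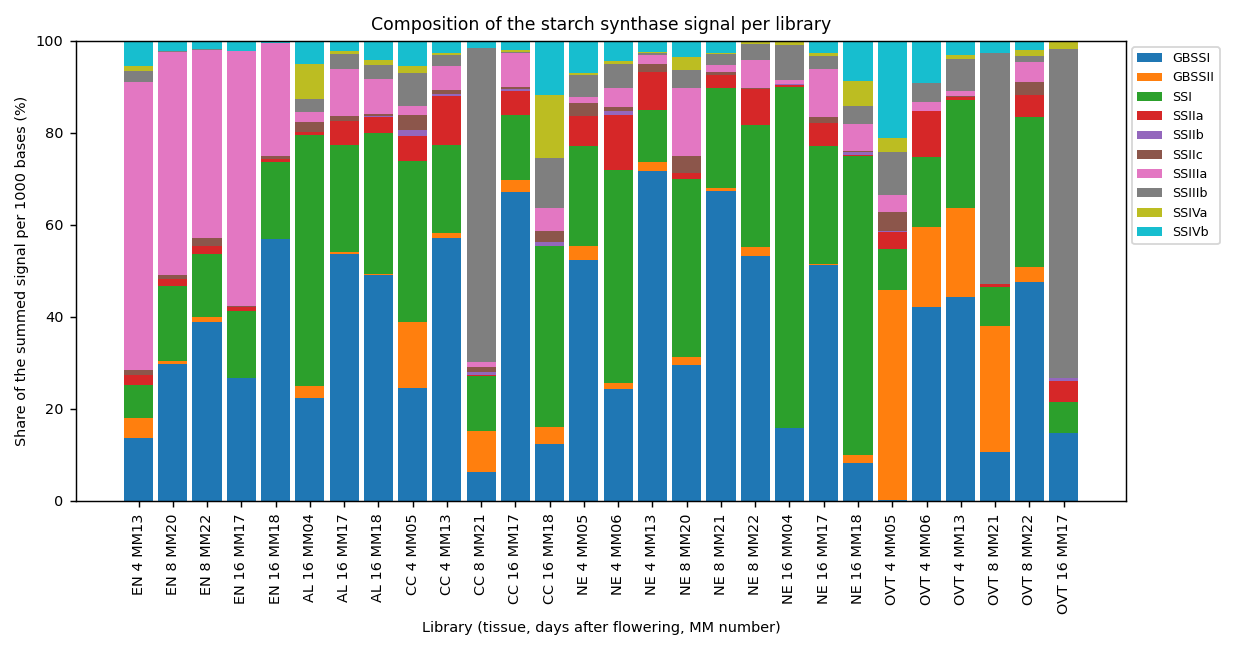
Share of each isoform in the summed signal per 1000 bases of the 10 isoforms, in percent, with 1 bar per library in order of tissue, DAF and MM number. SSIIIa takes 62.6% in EN at 4 DAF, whereas SSIIIb takes 68.2% in CC MM21 of 8 DAF and 71.4% in the library labelled OVT at 16 DAF.

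Among all genes of the table, ranked by signal per length, SSIIIa was at place 489 in the EN library of 4 DAF, 164 and 232 in those of 8 DAF, and 117 and 146 in those of 16 DAF. GBSSI was at place 1780 at 4 DAF, 235 and 242 for the libraries of 8 DAF, and 190 and 88 for those of 16 DAF. In the EN library of 4 DAF SSIIIa thus ranked above GBSSI and SSI (place 2954), among 45990 genes.

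The order of the groups by mean signal was EN at 16, 8 and 4 DAF for SSIIIa, each without overlap with the next group. For SSI, EN at 16 and 8 DAF led without overlap, and the 8 groups that followed, from NE at 16 DAF to AL, each overlapped with their neighbour. For GBSSI only EN at 16 DAF stood apart from the next group, EN at 8 DAF, which overlapped with CC at 16 DAF. For SSIIa, SSIIc and SSIVb the leading groups were EN at 16 or 8 DAF, and the first and second groups overlapped in each.

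The genes whose pattern over the 13 group means was most like that of GBSSI were Os05g0382000 (Pearson r of log2(signal + 10) 0.896), Os05g0591600 (0.895), Os05g0566800 (0.892), Os06g0687000 (0.892) and Os12g0576732 (0.890). For GBSSII they were Os07g0679000 (0.947), which the table annotates with potassium ion transport, Os06g0597200 (0.936), annotated with protein dephosphorylation, Os03g0439500 (0.923), Os05g0164900 (0.920) and Os10g0430700 (0.914). Within the family, SSI was the isoform closest to GBSSI (0.884), SSIIc correlated with SSIVb at 0.840 and with SSIIIa at 0.803, and SSIIb with SSIIIb at 0.768, both of which were highest in CC at 8 DAF and the library labelled OVT at 16 DAF. Without the library labelled OVT the 5 genes named for GBSSI had r of 0.899 to 0.920 and held places 6 to 17, and those for GBSSII had 0.883 to 0.936 and places 1 to 9. The values within the family were then 0.896, 0.743, 0.761 and 0.691, in the order given. These are descriptions over 13 or 12 points with a common set of libraries.

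Other genes of starch synthesis and starch handling were followed as a list of 18 identifiers, among them ADP-glucose pyrophosphorylase genes, which make the substrate of the synthases, and branching, debranching, phosphorylase and glucanotransferase genes. In EN at 8 DAF 6 of 18 were higher and 2 lower, with a median log2 fold change of 2.34, against 5.42% higher, 7.44% lower and a median of -0.08 over all genes, so that the 2 lower calls (11.1%) lay near the share of all genes. At 16 DAF 8 were higher and 2 lower, with a median of 2.53 (all genes 7.65%, 8.43% and -0.20), and without the library labelled OVT the counts were again 8 and 2 (median 2.95; all genes 5.14%, 8.31% and -0.35). At 4 DAF none was called, with a median of 1.23 (all genes 2.42% called and -0.12). An unadjusted p under 0.05 in limma was found for 5 of 18, against 3765 of 27529 genes.

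Os08g0345800, annotated with glucose-1-phosphate adenylyltransferase activity, was higher in EN by 7.63 ± 1.76 at 8 DAF (log2, adjusted p = 0.00963) and by 6.80 ± 1.76 at 16 DAF (adjusted p = 0.0131; 7.47 ± 1.77 and 0.0104 without the library labelled OVT). Os03g0758100 and Os01g0851700 both carry the term for glucan phosphorylase. They moved in opposite directions in EN at 8 DAF, by 3.31 ± 1.04 (adjusted p = 0.0358) and -4.60 ± 0.77 (adjusted p = 0.000467). Os07g0662900, annotated as a glucanotransferase, was lower by -3.40 ± 0.73 (adjusted p = 0.00356). In AL against EN 7 of the 18 were lower and 3 higher, against 3.89% and 6.61% of all genes, and the latter included Os01g0851700 (4.44 ± 0.84, adjusted p = 0.00137) and Os07g0662900 (4.56 ± 0.80, adjusted p = 0.000671).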

How the data were processed

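The authors used STAR for alignment against IRGSP-1.0 and R/Bioconductor for counts per gene in the 28 libraries, and versions and the treatment of reads matching several genes are not given in the sources used here. The deposited signal is reads times 1 factor per library, with 86.0 to 95.7% of values under 100 reads whole within 0.03, so no count test was run. One CC library, MM05, labelled 8 DAF by day and 4 DAF by title, was taken as 4 DAF. In the study's library list the OVT library from 16 DAF that was analysed here carries an exclusion mark. A further column of values matched no sample and was not used. Gene width came from the same file.

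Genes with a signal above 10 and at least 10 reads in 1 library (27529) were fitted on log2(signal + 10) in limma 3.58.1 (R 4.3.3, statmod 1.5.0), with 13 group means, a trended robust prior and Benjamini-Hochberg adjustment, and checked on simulated data. P-values are two-sided. Each tissue was set against the mean of the others of its stage, and ratios were tested by exact permutation within stages. Alternatives were other scaling factors, pseudocounts of 1 and 30, no filter, voom (limma weights from estimated reads), the MM number as a block, the prefix of the sample title as a covariate, and leaving out libraries. All 10 members were named, plus the 5 genes most like GBSSI and GBSSII. The rest used scipy 1.17.1, pandas 2.3.3, numpy 2.4.6, and matplotlib 3.10.9 under Python 3.11.15. Members and lists were chosen with earlier results of these data known.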

Additional observations from a re-analysis of the deposited data

How the results depend on the processing

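No result reversed, and the calls of SSIIIa in EN at 8 and 16 DAF and against AL held under all alternatives run. The call of SSIIIb in CC at 8 DAF held too, but it rests on CC MM21 alone. No alternative could leave that library out, so its level stays without a replicate. The number of isoforms called in EN at 4 DAF went from 0 to 1 with upper-quartile factors, TMM factors, a pseudocount of 30, voom and the MM number as a replicate block. In EN at 8 DAF it went from 2 to 4 with upper-quartile and TMM factors and to 1 with voom and the replicate block, and at 16 DAF from 6 to 3 scaled to equal summed signal (an alternative chosen after seeing the data) and without the library labelled OVT. In CC it went at 4 DAF from 1 to 0 with a pseudocount of 1, voom, the replicate block and the title prefix, at 8 DAF from 2 to 1 with voom, and at 16 DAF from 1 to 3 with upper-quartile factors and to 2 scaled to equal summed signal and without the library labelled OVT. In NE it went from 0 to 1 at 8 DAF with a pseudocount of 30, and at 16 DAF to 3 with upper-quartile factors and to 1 with voom and without the library labelled OVT. In OVT it went at 4 DAF from 0 to 1 with a pseudocount of 30 and the replicate block, and at 8 DAF from 1 to 2 with upper-quartile factors and a pseudocount of 1, and to 0 with no filter and voom. In AL against EN it went from 2 to 5 with voom. Leaving out 1 library gave 1 to 3 isoforms in EN at 8 DAF, 2 to 8 at 16 DAF, 0 to 1 in CC at 4 and at 16 DAF, 0 to 1 in NE at 8 DAF, 0 to 2 at 16 DAF, 0 to 2 in OVT at 4 and at 8 DAF, 0 to 1 for EN 16 DAF against 8 DAF and 0 to 1 for OVT 8 DAF against 4 DAF. With 1 library left out, the difference between EN and the other tissues lay between 1.89 and 4.05 for the log2 ratio of GBSSI to GBSSII (2.59 with all), between 2.26 and 3.59 for SSIIa to SSIIb (2.50 with all) and between -5.17 and -2.97 for SSIVa to SSIVb (-3.30 with all), with the largest size in each case without the EN library of 4 DAF. Without length correction the share of SSIIIa in EN was 77.4% at 4 DAF, 64.3% at 8 DAF and 58.4% at 16 DAF. That of GBSSI was 6.92%, 20.3% and 27.5%, so SSIIIa then led at 16 DAF, where the shares per length were 40.1% and 41.7%. What an MM number marks is not given in the sources used here, although tissues of 16 DAF were captured one after another from sections, so whether the numbers behind the replicate block pair the libraries was not settled. Deviations of 25 same-numbered pairs correlated at -0.195 to 0.461, with 6 above 0.1, which were all 4 pairs of CC with NE (0.105 to 0.209) and the MM17 pairs of AL with CC (0.108) and NE (0.461), and 13 of 25 libraries correlated best with their own number. Scaled to equal summed signal the median of all genes in EN at 16 DAF moved from -0.20 to -0.72. Upper-quartile factors multiply the library labelled OVT at 16 DAF by 9.94, against 0.689 to 1.39 for the others. With them 4109 genes were called in CC and 3773 in NE at 16 DAF, against 2345 and 2243 in the main fit. The cause of these shifts was not tested. Groups of 1 or 2 libraries, and 8 or fewer reads behind several SSIIb values, limit what can be detected.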
